A study of Mus musculus with 12 samples.

Results

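The DNA replication genes described here are 48 genes named for their roles at origins and replication forks. They were chosen by name, though with earlier results of these data known. Where several probe sets carried a gene's symbol alone, the one that was brightest on average over the 12 arrays stood for the gene. Values were obtained for 47 of the 48 genes, among 18193 genes on the arrays, and Chaf1a was not analysed here. Values are log2 intensities, so a difference of 1 is a 2-fold difference. All cells came from C57Bl/6 mice of 10 to 12 weeks, with no transgene or treatment in the labels. Haematopoietic stem cells (HSC, 3 arrays) were bone marrow cells with cKit, Sca1 and CD150 but neither lineage markers nor Flt3. Multipotent progenitors (MPP, 3 arrays) had cKit, Sca1 and Flt3 without lineage markers or CD150. PreMegE cells (4 arrays), progenitors of megakaryocytes and red cells, had cKit and CD150 but no Sca1, CD105, CD41 or lineage markers. CD4+ T cells (2 arrays) came from spleen and lacked CD8, B220 and NK1.1. HSC and MPP were sorted for the study, whereas the PreMegE and T cell arrays were taken from 2 earlier ones, so study and population cannot be told apart in comparisons across these sets. Nothing in the labels says that arrays of a population came from separate mice, so a p-value reflects only how these samples spread, which may be technical.

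Replication is prepared before it starts. The origin recognition complex (Orc1 to Orc6) binds origins and, with Cdc6 and Cdt1, loads rings of the Mcm2 to Mcm7 helicase, a step called licensing that geminin (Gmnn) blocks once S phase begins. The kinase Cdc7 with its partner Dbf4, and the factors Mcm10, Cdc45 and GINS, then turn the rings into working helicases, and polymerase alpha with primase starts each strand. Polymerases delta and epsilon extend the strands behind the sliding clamp Pcna, which the Rfc complex loads, while Rpa coats single strands, Fen1 and Lig1 join the lagging-strand fragments, a set of enzymes supplies deoxynucleotides, and Chaf1b belongs to the complex that puts histones on new DNA. Most adult HSC are known to divide rarely, whereas progenitors divide often and most splenic T cells rest outside the cell cycle. Transcripts of many of these genes are known to rise when cells enter S phase, with E2F factors among their regulators.

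Most sort markers followed the labels. Flt3 was highest in MPP (10.02 against 5.73 to 6.6 in the other populations), Kit was lowest in T cells (3.46 against 9.97 to 10.58), and 4 of 4 measured T cell markers were higher in T cells than in HSC. Itga2b, the gene for CD41, did not: in PreMegE cells, sorted without CD41, it read 8.45, above MPP (7.82, adjusted p = 0.00761) and T cells (5.09) and below HSC (10.54). Neutrophil transcripts moved with 2 arrays. The median of 8 neutrophil markers was 7.83 on HSC 2 against 4.79 and 4.73 on the other HSC arrays, and 7.81 on PreMegE 1 against 5.79 to 6.78 on the other PreMegE arrays, while MPP and T cell arrays lay between 3.48 and 4.25. The median of the 4 measured B cell markers was 6.79 and 6.95 on the T cell arrays against 3.53 to 4.91 elsewhere, and all 4 were higher in T cells than in HSC. Among them Ighm was also high outside T cells, at 9.94 to 10.73 in MPP, 9.04 on HSC 2 and 9.35 on PreMegE 1. On the remaining HSC and PreMegE arrays Ighm read 3.57 to 5.04. Outside T cells Cd79a, Cd79b and Ms4a1 read at most 6.17. The 3′ minus 5′ difference in log2 intensity between actin probe sets, a sign of RNA quality, was 0.99 and 1.13 in T cells, 2.35 to 2.77 in HSC and MPP, and 3.49 to 4.65 in PreMegE cells, highest on PreMegE 1. The same difference for Gapdh did not set PreMegE cells apart, at 3.12 to 4.39 there against 3.86 to 4.14 in HSC, 3.62 to 3.88 in MPP and 2.55 to 2.66 in T cells. The part of these signals in the results below was not tested, and counts are also given without HSC 2 and PreMegE 1. PreMegE 1 was the lowest of its population for 31 of the 47 genes. Xist, transcribed from the inactive X chromosome, was 12.04 on HSC 1 but 2.45 and 2.59 on the other HSC arrays, and at least 10.91 on the other 9 arrays. By this reading HSC 1 held female cells and HSC 2 and HSC 3 did not, so HSC 1 did not come from the same mice. The part of sex in the results, X-linked Pola1 among them, was not tested.

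The promoters of several of these genes share a short word. RefSeq promoter windows of assembly GRCm38.p6, from 250 bases before to 50 bases after a start site, were matched by symbol for 41 of the 48 genes, 7 of which had more than 1 window. They were searched on both strands for 4 forms of the E2F motif, TTTCCCGC, TTTCGCGC, TTTGCCGC and TTTGGCGC. At least 1 form stood in a window of 14 of the 41 genes (34.1%), against 550 of 14452 genes with a window on the arrays (3.81%) and 704 of 27025 genes in the whole table (2.60%). The CCAAT box, searched as CCAAT on both strands, stood in 23 of the 41 (56.1%), against 42.0% of the genes on the arrays. Of the 31 members with a window that were lower in T cells than in HSC, 13 held the E2F motif, as did 1 of 2 that were higher and 0 of 7 that were not called. A match is a description of the sequence and not of binding, and a window without one says only that these letters are not in it.

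The 250 bases before the start are printed for 8 genes. All but Tk1 hold the motif upstream of the start, among them Cdc6 and Mcm5, which fell most in their roles in T cells. Orc3, which also holds it, rose there on the probe set used and fell on its next brightest. Tk1 is shown as a gene with a large difference and no match. The sequences run 5′ to 3′ in the direction of the gene, with matches to the E2F forms in capitals. The Mcm5 stretch is chr8:75109259-75109508 (+ strand) and the Mcm6 stretch is chr1:128359706-128359955 (- strand). Cdc6 is shown from chr11:98907901-98908150 (+ strand), Orc1 from chr4:108579204-108579453 (+ strand) and Orc3 from chr4:34614943-34615192 (- strand). Pola1 comes from chrX:93632156-93632405 (- strand), Rfc3 from chr5:151651209-151651458 (- strand) and Tk1 from chr11:117826015-117826264 (- strand).
Mcm5: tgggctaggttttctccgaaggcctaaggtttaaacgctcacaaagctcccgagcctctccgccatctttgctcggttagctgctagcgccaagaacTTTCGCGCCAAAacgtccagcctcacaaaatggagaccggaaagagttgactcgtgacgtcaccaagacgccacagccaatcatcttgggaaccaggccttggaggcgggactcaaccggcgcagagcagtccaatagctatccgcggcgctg
Mcm6: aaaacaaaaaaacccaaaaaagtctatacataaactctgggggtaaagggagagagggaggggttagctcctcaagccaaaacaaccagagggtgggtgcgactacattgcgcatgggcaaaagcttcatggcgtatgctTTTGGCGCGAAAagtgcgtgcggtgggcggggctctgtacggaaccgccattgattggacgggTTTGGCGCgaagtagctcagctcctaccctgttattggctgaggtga
Cdc6: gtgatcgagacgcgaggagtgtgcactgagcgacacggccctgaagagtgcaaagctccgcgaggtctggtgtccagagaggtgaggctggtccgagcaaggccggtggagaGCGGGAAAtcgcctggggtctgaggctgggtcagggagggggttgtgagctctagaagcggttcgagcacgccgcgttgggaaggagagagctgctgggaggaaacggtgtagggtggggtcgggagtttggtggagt
Orc1: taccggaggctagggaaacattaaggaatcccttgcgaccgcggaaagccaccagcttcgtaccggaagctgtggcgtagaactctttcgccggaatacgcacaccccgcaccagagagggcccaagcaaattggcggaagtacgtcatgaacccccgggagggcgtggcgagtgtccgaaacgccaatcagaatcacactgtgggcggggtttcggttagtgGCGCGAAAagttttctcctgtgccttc
Orc3: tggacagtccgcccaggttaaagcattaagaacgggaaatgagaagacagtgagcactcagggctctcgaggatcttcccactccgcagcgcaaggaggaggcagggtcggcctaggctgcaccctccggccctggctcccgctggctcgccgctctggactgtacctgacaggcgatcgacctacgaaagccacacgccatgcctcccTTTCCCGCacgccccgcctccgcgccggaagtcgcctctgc
Pola1: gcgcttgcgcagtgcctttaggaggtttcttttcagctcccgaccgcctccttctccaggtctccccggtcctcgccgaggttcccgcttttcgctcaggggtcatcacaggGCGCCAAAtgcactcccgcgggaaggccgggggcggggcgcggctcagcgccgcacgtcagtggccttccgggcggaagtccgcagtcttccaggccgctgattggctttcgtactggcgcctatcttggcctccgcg
Rfc3: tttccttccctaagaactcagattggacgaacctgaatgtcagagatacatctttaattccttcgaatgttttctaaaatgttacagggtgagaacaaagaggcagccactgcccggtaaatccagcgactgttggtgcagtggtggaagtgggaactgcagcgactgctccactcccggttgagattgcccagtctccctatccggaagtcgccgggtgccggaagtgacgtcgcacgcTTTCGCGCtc
Tk1: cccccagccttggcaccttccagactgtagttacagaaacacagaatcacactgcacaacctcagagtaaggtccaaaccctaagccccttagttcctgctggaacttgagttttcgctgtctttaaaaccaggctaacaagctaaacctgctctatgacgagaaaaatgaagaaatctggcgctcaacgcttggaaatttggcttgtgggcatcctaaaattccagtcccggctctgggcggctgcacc
In Mcm5 and in Mcm6, 2 forms on opposite strands overlap, and Mcm6 holds a further match closer to the start. The first base of the match nearest to the start lay 10 bases upstream in Rfc3, 27 in Orc1, 41 in Orc3, 47 in Mcm6, 138 in Cdc6 and in Pola1, and 149 in Mcm5.

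Few of these transcripts differed between HSC and MPP, more were lower in PreMegE cells, and most were lowest in T cells. T cells had the lowest mean for 40 of the 47 genes, and MPP (21 genes) or HSC (17 genes) the highest for most. The order MPP, HSC, PreMegE, T cell held for 17 genes and HSC, MPP, PreMegE, T cell for 14. In the limma fit over all 12 arrays, with a gene called at an adjusted p under 0.05, 3 of 47 members differed between MPP and HSC, 2 higher and 1 lower, where 11.3% of all genes were called (6.38% higher, 4.93% lower). Between PreMegE cells and HSC 27 members were called, 6 higher and 21 lower, against 28.9% of all genes (11.9% higher, 17.0% lower). Between T cells and HSC 40 were called, 2 higher and 38 lower, against 37.8% of all genes (17.0% higher, 20.8% lower). In whole populations, fewer cycling cells and less RNA per cell cannot be told apart.

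The sizes of the differences separated the 3 comparisons further. The median over members was 0.09 for MPP minus HSC, -0.47 for PreMegE minus HSC and -1.64 for T cells minus HSC, beside -0.03, -0.01 and -0.06 over all genes. Under other normalisations the median over members for MPP minus HSC changed sign, to -0.02 (quantile) and -0.01 (cyclic loess). At least 2-fold lower and called were 0 members in MPP, 10 in PreMegE cells and 32 in T cells relative to HSC, where 2.14%, 7.31% and 12.8% of all genes were. These comparisons share the HSC arrays. MPP arrays lay wholly above HSC arrays for 13 members and wholly below for 8, and 15.2% and 14.7% of all genes did so. PreMegE arrays lay wholly above HSC arrays for 5 members and below for 22, against 13.2% and 18.4% of all genes. T cell arrays lay wholly above HSC arrays for 3 members and below for 39, against 23.7% and 30.6%.

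The comparisons with MPP gave 32 members called in PreMegE cells, 5 higher and 27 lower (33.0% of all genes were called, 13.5% higher and 19.5% lower), and 40 in T cells, 3 higher and 37 lower (35.5%, 15.5% and 20.0%). At least 2-fold lower than in MPP were 13 members in PreMegE cells (9.27% of all genes) and 35 in T cells (12.9%). Between T cells and PreMegE cells 36 were called, 2 higher and 34 lower (33.1%, 16.3% and 16.8%), 30 of them at least 2-fold lower (9.67%). Without overlap, PreMegE arrays lay above MPP arrays for 5 members and below for 27 (17.5% and 21.9% of all genes), T cell arrays above MPP arrays for 3 and below for 38 (26.8% and 31.0%), and T cell arrays above PreMegE arrays for 2 and below for 36 (20.5% and 23.4%). The 3 members higher in T cells than in MPP (Orc3, Orc4 and Orc5) became 1 without MPP 2, MPP 3 or T cell 1 and 2 without MPP 1 or T cell 2. The 2 higher than in PreMegE cells became 1 without PreMegE 1 or T cell 1 and 0 without T cell 2. Without HSC 2 and PreMegE 1 the counts were 3, 22, 28, 40, 40 and 36 for MPP minus HSC, PreMegE minus HSC, PreMegE minus MPP, and T cells minus HSC, MPP and PreMegE cells.

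**Figure D1:**
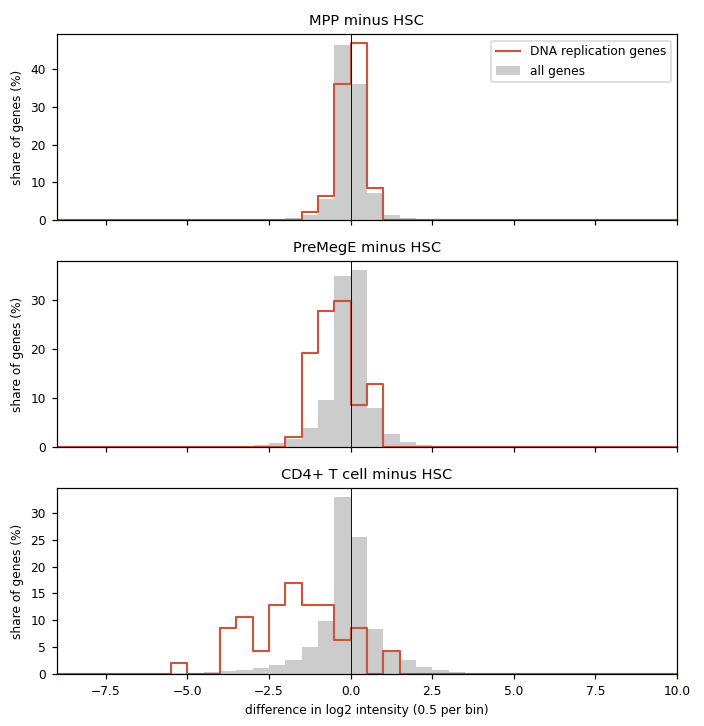
Distribution of differences in log2 intensity from HSC, in bins of 0.5, for all 18193 genes (grey bars) and the 47 DNA replication genes (red line), as a share of each set in percent. The members centre near 0 in MPP (median 0.09), shift to lower values in PreMegE cells (median -0.47) and spread to -5.10 in T cells (median -1.64), while all genes stay centred near 0.

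**Figure D2:**
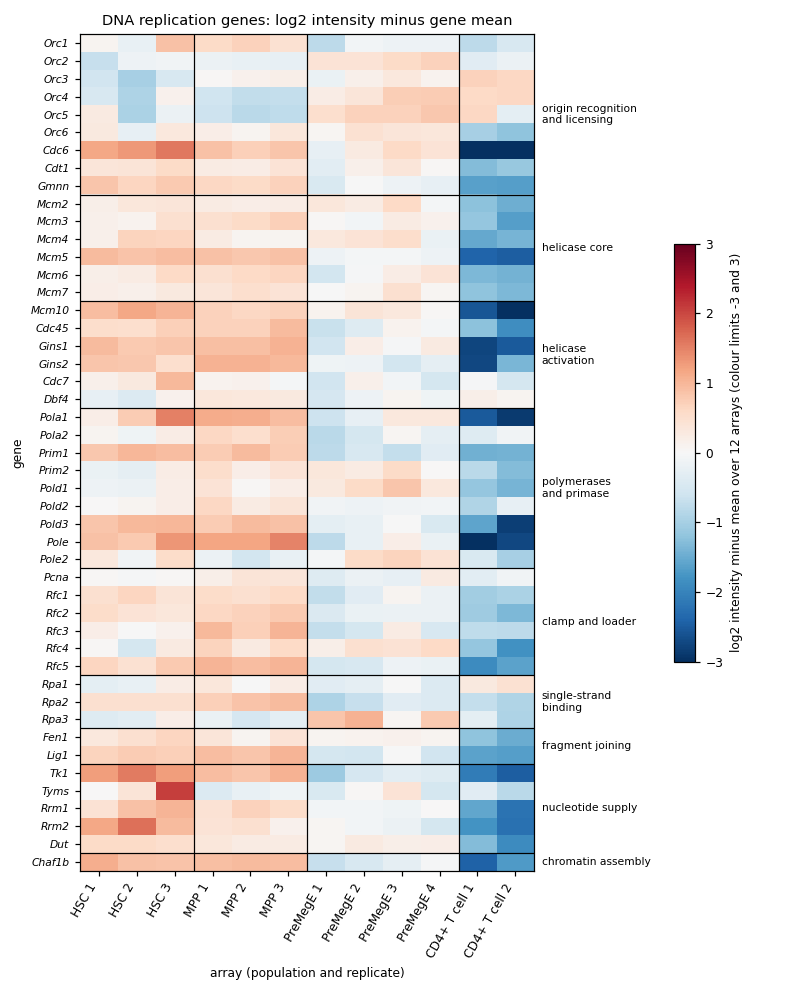
Log2 intensity of each of the 47 measured genes on each of the 12 arrays, minus the mean of that gene over the arrays; rows are genes grouped by role, columns are arrays grouped by population, and colours stop at -3 and 3. The 2 T cell columns are low for most genes, with Orc3, Orc4, Orc5 and Rpa1 among the exceptions.

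Origin recognition and licensing genes did not move as a block. In PreMegE cells 4 of the 9 were higher than in HSC (Orc2, Orc3, Orc4 and Orc5) and 2 were lower (Cdc6 and Gmnn), and in T cells 2 were higher (Orc3 and Orc4) and 5 were lower. Orc3, a core subunit of the origin recognition complex, read 6.94, 6.52 and 7.05 on the HSC arrays and 7.55, 7.65 and 7.69 on the MPP arrays. In PreMegE cells Orc3 read 7.32, 7.68, 7.84 and 7.63, and in T cells 8.21 and 8.15. Every HSC value of Orc3 lay below every other value, and both T cell values lay above the rest. The difference from HSC was 0.79 ± 0.17 (SE) in MPP (limma, adjusted p = 0.00627), 0.78 ± 0.16 in PreMegE cells (adjusted p = 0.00145) and 1.34 ± 0.19 in T cells (adjusted p = 3.3e-05). Orc3 was also higher in T cells than in PreMegE cells (0.56 ± 0.18, adjusted p = 0.0259), a call lost without PreMegE 1 (0.0651), T cell 1 (0.126) or T cell 2 (0.0887). Its next brightest probe set, at a mean level of 5.95, gave 0.04 for MPP minus HSC (limma, adjusted p = 0.936) and -0.27 for PreMegE minus HSC (0.160). In T cells that probe set was called lower, by -0.69 from HSC (0.00267), -0.73 from MPP (0.00184) and -0.42 from PreMegE cells (0.0468). The mean of the Orc3 probe sets gave 0.28 (0.163) in MPP, 0.10 (0.571) in PreMegE cells and 0.12 (0.539) in T cells relative to HSC, none called. The calls on Orc3, and its direction in PreMegE and T cells, rest on the probe set used. Against MPP, the T cell difference of 0.55 ± 0.19 (adjusted p = 0.0342) was lost without any 1 of the MPP or T cell arrays (0.0591 to 0.136).

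Orc4 and Orc5, further core subunits, were high in PreMegE cells. Orc4 read 5.58, 5.15 and 6.20 in HSC, 5.47, 5.34 and 5.36 in MPP, 6.29, 6.42, 6.80 and 6.83 in PreMegE cells, and 6.67 and 6.70 in T cells. All PreMegE and T cell values of Orc4 lay above all HSC and MPP values, and the difference from HSC was 0.94 ± 0.21 in PreMegE cells (adjusted p = 0.00291) and 1.04 ± 0.25 in T cells (adjusted p = 0.00344). Orc5 read 7.35, 6.12 and 6.90 in HSC, 6.46, 6.28 and 6.31 in MPP, and 7.59, 7.76, 7.77 and 7.89 in PreMegE cells. Its 2 T cell values stood apart from each other, at 7.71 and 6.79. PreMegE values of Orc5 were above all HSC and MPP values, by 0.96 ± 0.25 relative to HSC (adjusted p = 0.00843), which became 0.63 without HSC 2 (adjusted p = 0.0551). The T cell difference from MPP of 0.90 ± 0.30 (adjusted p = 0.0274) was lost without MPP 2 (0.0716), MPP 3 (0.0658) or T cell 1, where it became 0.44 (0.385), and was 1.36 without T cell 2. Orc2 was 0.83 higher in PreMegE cells than in HSC (adjusted p = 7.7e-04) and 0.78 lower in T cells than in PreMegE cells (difference -0.78 ± 0.18, adjusted p = 0.00255), with the next brightest probe set at 0.02 for PreMegE minus HSC.

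The licensing factor Cdc6 had the largest difference of all members. It read 8.61, 8.73 and 9.02 in HSC, 8.31, 8.16 and 8.27 in MPP, 7.2, 7.71, 8.03 and 7.86 in PreMegE cells, and 3.88 and 3.49 in T cells. The populations fell in steps with no overlap between neighbours, and the T cell mean of 3.69 lay 0.41 above the lower quartile of all genes in T cells. Cdc6 was lower than in HSC by 34.3-fold in T cells (difference -5.10 ± 0.22, adjusted p = 6.6e-11) and by 2.13-fold in PreMegE cells (-1.09 ± 0.19, adjusted p = 3.6e-04). Its promoter stretch above holds 1 match to the E2F forms. The MPP difference from HSC of -0.54 ± 0.20 was not called (adjusted p = 0.105). It was called after quantile normalisation (-0.65, adjusted p = 0.0176) and after cyclic loess (-0.65, 0.0172). The same call was made with only HSC and MPP fitted (-0.54, 0.0381) and without PreMegE 1 (-0.54, 0.0466). Gmnn, the inhibitor of licensing, read 10.69, 10.51 and 10.65 in HSC, 10.49, 10.43 and 10.55 in MPP, 9.41, 9.84, 9.72 and 9.62 in PreMegE cells, and 8.23 and 8.22 in T cells. It fell in PreMegE cells (-0.97 ± 0.14, adjusted p = 5.3e-05) and in T cells (-2.39 ± 0.16, adjusted p = 9.2e-09) relative to HSC, with no overlap of arrays in either case.

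The remaining licensing genes moved in T cells. Cdt1, the partner of Cdc6 in ring loading, was -1.65 ± 0.19 and Orc6 -1.22 ± 0.20 in T cells relative to HSC (adjusted p = 4.0e-06 and 1.0e-04). Neither was called between PreMegE cells and HSC. Orc1, whose levels are known to vary over the cell cycle, was -0.87 ± 0.28 in T cells (adjusted p = 0.0202), a call lost without HSC 3 (-0.56, adjusted p = 0.0800) or T cell 1 (-0.72, 0.145) and on the next brightest probe set (-0.99, 0.0539).

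**Figure D3:**
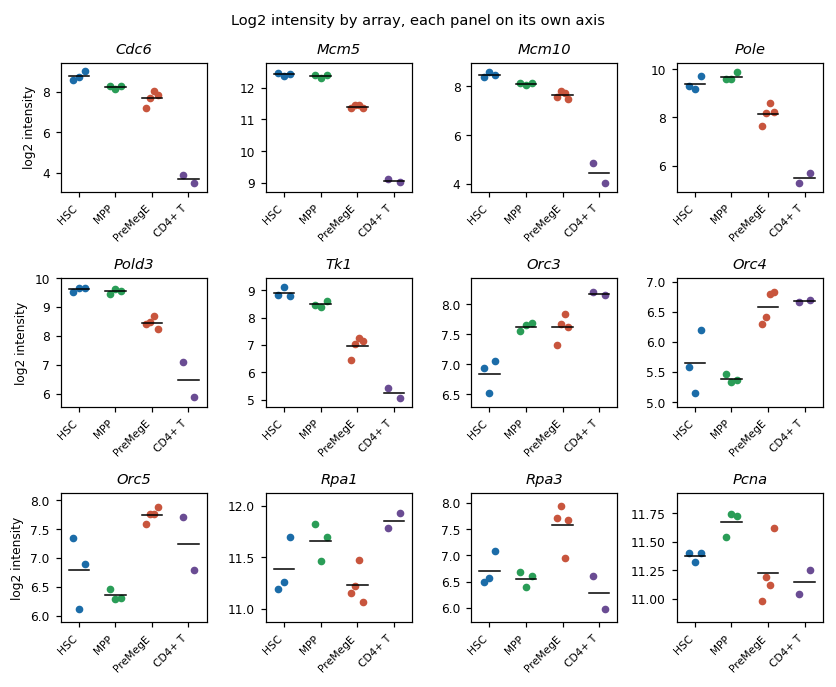
Log2 intensity of 12 DNA replication genes on each array, by population; points are arrays, black bars are means and each panel has its own axis. Cdc6, Mcm5, Mcm10, Pole, Pold3 and Tk1 are lowest in T cells with no overlap, whereas Orc3, Orc4 and Rpa1 are high in T cells, Orc5 and Rpa3 are high in PreMegE cells, and Pcna spans 10.98 to 11.74.

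The helicase core fell as a whole in T cells, while most of it was not called between PreMegE cells and HSC. In T cells all 6 of Mcm2 to Mcm7 were lower than in HSC, than in MPP and than in PreMegE cells, by 2-fold or more in each case. On the next brightest probe sets some gaps were below 2-fold. Mcm2 there read 8.62 in T cells, 9.41 in HSC and 9.22 in PreMegE cells, and Mcm4 read 8.69 in T cells and 9.40 in PreMegE cells. In PreMegE cells only Mcm5 was lower than in HSC, and Mcm3, Mcm5 and Mcm6 were lower than in MPP. On their next brightest probe sets Mcm2 (-0.58, limma, adjusted p = 0.0298) and Mcm4 (-0.49, 0.0312) were also called lower than in MPP. Mcm5 read 12.47, 12.36 and 12.43 in HSC, 12.39, 12.32 and 12.39 in MPP, 11.36, 11.44, 11.44 and 11.36 in PreMegE cells, and 9.11 and 9.04 in T cells. Its arrays agreed closely within each population, and PreMegE cells stood apart from HSC by 2.02-fold (-1.02 ± 0.12, adjusted p = 1.0e-05) and T cells by 10.2-fold (-3.35 ± 0.14, adjusted p = 4.5e-11). The other 5 subunits differed by -0.34 to -0.01 between PreMegE cells and HSC, none called, and by -1.96 to -1.49 between T cells and HSC. The Mcm3 difference from MPP in PreMegE cells (-0.51 ± 0.16, adjusted p = 0.0199) was lost without MPP 2 (0.0570), MPP 3 (0.0915) or PreMegE 2 (0.0582). The Mcm6 difference (-0.57 ± 0.20, adjusted p = 0.0357) was lost without any 1 of the 3 MPP arrays (0.0639 to 0.111), PreMegE 1 (0.0960) or PreMegE 2 (0.0728) and on the next brightest probe set (-0.02, 0.958). The probe sets of Mcm4 and Mcm5, like those of Pold1, Pold3, Fen1 and Rrm2, are of a type whose probes may also match other sequences.

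Of the 6 genes that activate the helicase, 5 were lower in PreMegE cells than in HSC and 5 were lower in T cells. Mcm10, which helps the loaded helicase open DNA, read 8.36, 8.59 and 8.44 in HSC, 8.13, 8.06 and 8.12 in MPP, 7.54, 7.81, 7.74 and 7.46 in PreMegE cells, and 4.87 and 4.05 in T cells. Gins1, a subunit of the GINS complex, read 9.11, 8.95 and 9.01 in HSC, 9.07, 9.06 and 9.22 in MPP, 7.60, 8.36, 8.12 and 8.44 in PreMegE cells, and 5.41 and 5.65 in T cells. For both genes PreMegE arrays lay below all HSC and MPP arrays and above the T cell arrays. Relative to HSC, Mcm10 was lower by 16-fold in T cells (-4.00 ± 0.21, adjusted p = 4.8e-10) and by 1.77-fold in PreMegE cells (-0.82 ± 0.18, adjusted p = 0.00205). Gins1 was lower by 11.3-fold in T cells (-3.49 ± 0.22, adjusted p = 3.0e-09) and by 1.86-fold in PreMegE cells (-0.89 ± 0.18, adjusted p = 0.00131). On the next brightest probe set of Mcm10, which was dim at a mean of 3.83, the differences were 0.13 in PreMegE cells and -0.57 in T cells, neither called, and the mean of its probe sets gave -0.31 in PreMegE cells (adjusted p = 0.165). On that of Gins1, at a mean of 4.74, the T cell difference was -0.52 (adjusted p = 0.0520).

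Gins2, another GINS subunit, read 7.77, 7.74 and 7.44 in HSC, 7.98, 7.98 and 7.91 in MPP, 6.82, 6.79, 6.4 and 6.66 in PreMegE cells, and 4.21 and 5.58 in T cells. PreMegE cells lay below HSC without overlap (-0.99 ± 0.24, adjusted p = 0.00503), and the 2 T cell arrays were below all others but 1.37 apart. The T cell difference from PreMegE cells of -1.77 ± 0.27 (adjusted p = 7.1e-05) became -1.09 without T cell 1 and -0.50 (0.164) on the next brightest probe set. Cdc45, the helicase cofactor, was -0.82 ± 0.19 in PreMegE cells and -2.11 ± 0.23 in T cells relative to HSC (adjusted p = 0.00439 and 2.1e-06), with differences of 0.08 and -0.08 on the next brightest probe set, neither called. The kinase pair behaved less evenly than the other activators. Cdc7 was -0.74 in PreMegE cells and -0.76 in T cells relative to HSC, adjusted p = 0.0195 and 0.0328. The PreMegE call on Cdc7 was lost without HSC 3 (-0.48, 0.120), PreMegE 1 (0.0569) or PreMegE 4 (0.0599), and the T cell call without HSC 3 (-0.51, 0.134) or T cell 2 (-0.52, 0.272). Neither call on Cdc7 was made on its next brightest probe set (-0.25 and -0.19). Dbf4 was called in neither (-0.01 and 0.30).

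Polymerase and primase genes split by subunit. Relative to HSC, 4 of 9 were lower in PreMegE cells (Pola1, Prim1, Pold3 and Pole) and 1 was higher (Pold1), whereas in T cells 8 of 9 were lower and Pola2 was not called. Pole, the catalytic subunit of polymerase epsilon, read 9.28, 9.18 and 9.73 in HSC, 9.59, 9.59 and 9.89 in MPP, 7.63, 8.17, 8.61 and 8.21 in PreMegE cells, and 5.29 and 5.68 in T cells. Prim1, the catalytic subunit of primase, read 9.97, 10.16 and 10.09 in HSC, 9.92, 10.11 and 9.94 in MPP, 8.38, 8.69, 8.46 and 8.82 in PreMegE cells, and 7.72 and 7.75 in T cells. HSC and MPP arrays of both genes overlapped, PreMegE arrays lay below them, and T cell arrays lay lowest. Pole was lower than in HSC by 2.37-fold in PreMegE cells (-1.24 ± 0.21, adjusted p = 3.2e-04) and 15.1-fold in T cells (-3.91 ± 0.25, adjusted p = 5.2e-09). Prim1 was lower by 2.80-fold in PreMegE cells (-1.49 ± 0.14, adjusted p = 1.3e-06) and 5.06-fold in T cells (-2.34 ± 0.17, adjusted p = 1.9e-08). On its next brightest probe set the PreMegE difference of Prim1 was -0.32 (adjusted p = 0.315).

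Pola1, the catalytic subunit of polymerase alpha, lies on the X chromosome. It read 7.81, 8.38 and 9.13 in HSC, 8.72, 8.70 and 8.54 in MPP, 7.0, 7.37, 7.93 and 7.94 in PreMegE cells, and 5.10 and 4.73 in T cells. The HSC arrays spread widely and reached down to the PreMegE range. The T cell difference from HSC was -3.52 ± 0.33 (adjusted p = 3.6e-07). The PreMegE difference of -0.88 ± 0.27 (adjusted p = 0.0245) was lost without HSC 2 (0.0532), HSC 3 (-0.54, 0.150), PreMegE 1 (0.0722) or PreMegE 2 (0.0650). The next brightest probe set of Pola1 averaged 2.88, below the lower quartile of all genes (3.27 to 3.35 over the populations), and gives no second reading.

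Pold1 was called higher in PreMegE cells than in HSC and Pole2 higher in PreMegE cells than in MPP, while both fell in T cells. Pold1, the catalytic subunit of polymerase delta, read 9.24, 9.22 and 9.59 in HSC, 9.81, 9.43 and 9.60 in MPP, 9.70, 9.98, 10.23 and 9.72 in PreMegE cells, and 8.23 and 8.0 in T cells. All PreMegE values of Pold1 were above all HSC values, by 0.56 ± 0.17 (adjusted p = 0.0199), and the T cell values were below all others (-1.50 ± 0.20 relative to MPP, adjusted p = 1.8e-05). The PreMegE call was lost without HSC 1 (0.0813) or HSC 2 (0.0795). The next brightest probe set of Pold1 gave -0.64 (limma, adjusted p = 0.0195), a call in the opposite direction. Pole2, the second subunit of polymerase epsilon, read 8.63, 8.21 and 8.85 in HSC, 8.14, 7.75 and 8.09 in MPP, 8.25, 8.88, 8.97 and 8.75 in PreMegE cells, and 7.85 and 7.32 in T cells. PreMegE values of Pole2 lay above MPP values (0.72 ± 0.21, adjusted p = 0.0129, lost without MPP 2 at 0.0761), and T cell values lay below HSC values (-0.98 ± 0.25, adjusted p = 0.00461, lost without T cell 2 at 0.0849). On the mean of its probe sets, of which the next brightest averages 2.97 and so lies below that quartile, the Pole2 difference was -0.30 (0.301). Pold3, the subunit that ties polymerase delta to the clamp, was -1.17 ± 0.22 in PreMegE cells and -3.12 ± 0.26 in T cells relative to HSC (adjusted p = 7.3e-04 and 1.1e-07). Pold2 was lower in T cells by a difference of -0.68 (adjusted p = 0.00945), which became -0.35 without T cell 1 (0.221).

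Among clamp and clamp loader genes, the clamp Pcna itself was not called relative to HSC. It read 11.40, 11.32 and 11.40 in HSC, 11.54, 11.74 and 11.73 in MPP, 10.98, 11.19, 11.12 and 11.62 in PreMegE cells, and 11.04 and 11.25 in T cells. T cell values of Pcna lay inside the PreMegE range, and the differences from HSC of -0.15 ± 0.16 in PreMegE cells and -0.23 ± 0.19 in T cells were not called (adjusted p = 0.556 and 0.391). Relative to MPP it was -0.45 ± 0.16 in PreMegE cells and -0.53 ± 0.19 in T cells (adjusted p = 0.0389 and 0.0383), and both calls were lost when 1 of several arrays was left out. For PreMegE cells these were any MPP array or PreMegE 1, 2 or 3 (adjusted p = 0.0514 to 0.124), and for T cells MPP 2, MPP 3 or either T cell array (0.0586 to 0.225). All 5 loader subunits, Rfc1 to Rfc5, were lower in T cells than in HSC, by -2.37 to -0.88, and Rfc1, Rfc2 and Rfc5 were lower in PreMegE cells. The calls on Rfc3 in T cells (-0.51, 0.242) and on Rfc2 in PreMegE cells (-0.15, 0.514) were lost on the next brightest probe set.

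Rfc5 read 9.18, 8.98 and 9.31 in HSC, 9.55, 9.46 and 9.54 in MPP, 8.01, 8.06, 8.37 and 8.34 in PreMegE cells, and 6.65 and 6.93 in T cells. The 4 populations did not overlap, with differences from HSC of -0.96 ± 0.15 in PreMegE cells (adjusted p = 1.2e-04) and -2.37 ± 0.17 in T cells (adjusted p = 2.4e-08). Rfc4 read 7.63, 7.07 and 7.86 in HSC, 8.27, 7.86 and 8.19 in MPP, 7.77, 8.08, 8.02 and 8.19 in PreMegE cells, and 6.43 and 5.77 in T cells. Its PreMegE arrays overlapped the HSC and the MPP arrays, and the highest HSC and lowest MPP arrays both read 7.86 after rounding. T cells were lower than PreMegE cells by -1.92 ± 0.23 (adjusted p = 6.7e-06). Rfc3 was 1 of the 3 members called between MPP and HSC. Rfc3 read 5.69, 5.46 and 5.60 in HSC, 6.46, 6.20 and 6.49 in MPP, 4.77, 4.96, 5.73 and 4.99 in PreMegE cells, and 4.73 and 4.69 in T cells. MPP lay above every other array, by 0.80 ± 0.21 relative to HSC (adjusted p = 0.0200), a call lost without HSC 2 (0.0748), MPP 1 (0.0765) or MPP 3 (0.0877) and on the next brightest probe set (0.87, 0.0686).

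The subunits of Rpa, the complex that coats single strands, went 3 ways. Rpa2 read 9.07, 9.07 and 9.08 in HSC, 9.30, 9.46 and 9.54 in MPP, 7.67, 7.91, 8.26 and 8.19 in PreMegE cells, and 7.89 and 7.68 in T cells. Its PreMegE and T cell arrays overlapped and lay below HSC, by -1.06 ± 0.15 (adjusted p = 7.8e-05) and -1.29 ± 0.18 (adjusted p = 3.6e-05). On its next brightest probe set, at a mean of 5.99, the T cell difference was -0.32 (adjusted p = 0.512). Rpa3, the smallest subunit, read 6.49, 6.56 and 7.08 in HSC, 6.68, 6.39 and 6.6 in MPP, 7.72, 7.94, 6.95 and 7.67 in PreMegE cells, and 6.6 and 5.97 in T cells. PreMegE 1, 2 and 4 were above all others and PreMegE 3 lay within the HSC range. The PreMegE differences were 0.86 ± 0.23 from HSC (adjusted p = 0.0100, lost without HSC 1 at 0.0553) and 1.01 ± 0.23 from MPP (adjusted p = 0.00275), and T cells were lower than PreMegE cells by -1.29 ± 0.26 (adjusted p = 9.6e-04). Rpa1, the largest subunit, read 11.19, 11.26 and 11.70 in HSC, 11.82, 11.46 and 11.70 in MPP, 11.15, 11.22, 11.47 and 11.06 in PreMegE cells, and 11.78 and 11.93 in T cells. Only the T cell and PreMegE arrays, and the T cell and HSC arrays, did not overlap. It was higher in T cells than in PreMegE cells by 0.63 ± 0.18 (adjusted p = 0.0132, lost without T cell 2 at 0.109), and relative to HSC the difference of 0.47 ± 0.19 was not called (adjusted p = 0.0665).

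The genes that finish the lagging strand and rebuild chromatin were lower in T cells. Lig1, the ligase that seals fragments, read 9.68, 9.77 and 9.71 in HSC, 9.93, 9.83 and 10.03 in MPP, 8.47, 8.46, 9.0 and 8.44 in PreMegE cells, and 7.41 and 7.35 in T cells. Fen1, the flap nuclease, read 11.64, 11.80 and 11.96 in HSC, 11.68, 11.41 and 11.73 in MPP, 11.41, 11.42, 11.44 and 11.41 in PreMegE cells, and 10.11 and 9.84 in T cells. Chaf1b, of the histone-depositing complex, read 8.38, 8.18 and 8.15 in HSC, 8.21, 8.25 and 8.23 in MPP, 6.6, 6.82, 7.02 and 7.26 in PreMegE cells, and 4.87 and 5.59 in T cells. Lig1 and Chaf1b stepped down from HSC to PreMegE cells to T cells without overlap, while Fen1 overlapped between MPP and PreMegE cells. Differences from HSC in PreMegE cells were -1.13 ± 0.15 for Lig1 (adjusted p = 3.8e-05), -1.31 ± 0.18 for Chaf1b (adjusted p = 5.8e-05) and -0.37 ± 0.14 for Fen1, which was not called (adjusted p = 0.0552). Fen1 was called lower in PreMegE cells after quantile normalisation (-0.39, 0.0406), after cyclic loess (-0.39, 0.0311) and with a variance that followed intensity (-0.37, 0.0190). Calls were also made on the mean of its probe sets (-0.48, 0.0161) and without HSC 1 (-0.46, 0.0495). In T cells the differences from HSC were -2.34 ± 0.18 for Lig1, -3.0 ± 0.22 for Chaf1b and -1.82 ± 0.17 for Fen1 (adjusted p = 4.4e-08, 2.3e-08 and 2.7e-07). The next brightest probe set of Chaf1b averaged 2.90, below the lower quartile of all genes, and gives no second reading.

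Among roles with more than 1 gene measured, nucleotide supply had the lowest median difference from HSC in PreMegE cells (-0.96) and in T cells (-2.67). The PreMegE median was the difference of Tyms, which was not called. Tyms read 6.29 on HSC 3 against 4.23 and 4.60 on the other HSC arrays, so this rank rests in part on 1 array. Helicase activation came next in PreMegE cells, at -0.82. In T cells 5 of 5 genes were lower, and in PreMegE cells Tk1, Rrm1 and Rrm2 were. Tk1, the thymidine kinase of S phase, read 8.81, 9.10 and 8.80 in HSC, 8.46, 8.38 and 8.59 in MPP, 6.46, 7.03, 7.24 and 7.15 in PreMegE cells, and 5.44 and 5.08 in T cells. The populations of Tk1 did not overlap, and Tk1 had the largest PreMegE difference from HSC of all members, 3.82-fold lower (-1.93 ± 0.18, adjusted p = 1.2e-06), and was 12.5-fold lower in T cells (-3.64 ± 0.22, adjusted p = 2.3e-09). Rrm2, the small subunit of ribonucleotide reductase, read 10.31, 10.82 and 10.12 in HSC, 9.56, 9.63 and 9.29 in MPP, 9.22, 9.07, 8.98 and 8.63 in PreMegE cells, and 7.36 and 6.92 in T cells. It was the only member called lower in MPP than in HSC (-0.92 ± 0.21, adjusted p = 0.00788), with no overlap of arrays in any pair of populations. The MPP call was not made on the mean of its probe sets (-0.35, 0.286) or on the next brightest (-0.36, 0.304). In PreMegE cells Rrm2 was -1.44 ± 0.19 (adjusted p = 3.5e-05) and in T cells -3.28 ± 0.23 (adjusted p = 1.4e-08) relative to HSC. Rrm1, the large subunit, was -0.85 in PreMegE cells (adjusted p = 0.00173) and -2.67 in T cells (adjusted p = 5.8e-08).

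Tyms, the enzyme that makes thymidylate, was read near the bottom of the intensity range. It read 4.23, 4.60 and 6.29 in HSC, 3.80, 3.99 and 4.10 in MPP, 3.75, 4.26, 4.62 and 3.69 in PreMegE cells, and 3.88 and 3.40 in T cells. HSC 3 stood far above every other array, and the HSC spread (SD 1.10) was the largest of any member. The T cell difference from HSC of -1.4 ± 0.44 (adjusted p = 0.0195) became -0.77 without HSC 3 (0.0461) and was lost without T cell 2 (-1.16, 0.143) and on the next brightest probe set (-0.43, 0.317). Dut, which clears dUTP, was 10.31, 10.31 and 10.23 in HSC against 8.43 and 7.85 in T cells (-2.14 ± 0.17, adjusted p = 7.5e-08), and its PreMegE difference of -0.37 was not called (adjusted p = 0.0689).

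**Figure D4:**
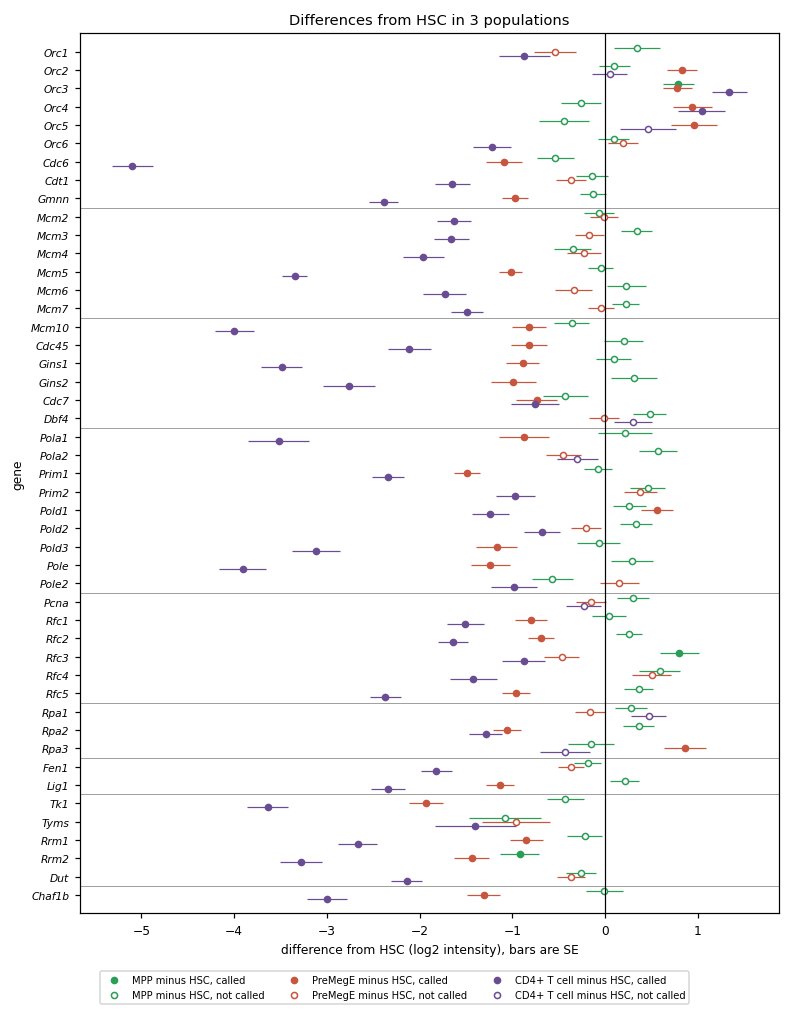
Difference of each of the 47 genes from HSC in MPP, PreMegE cells and T cells, in log2 intensity with bars for the standard error; filled points were called at an adjusted p under 0.05 (limma), open points were not, and lines separate the roles. MPP points sit around 0, PreMegE points reach -1.93 (Tk1), and T cell points reach -5.10 (Cdc6), with Orc3 and Orc4 to the right of 0.

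Between MPP and HSC the differences were small for most members. Of the 47 genes, 39 (83%) lay within 0.5 of 0, as did 82.3% of all genes, and the median standard error of a member was 0.19. Unadjusted p was under 0.05 for 13 members, and the 3 called after adjustment were Orc3, Rfc3 and Rrm2. The count of 3 became 5 without PreMegE 1 and 2 without HSC 2, MPP 1 or MPP 3. All 5 nucleotide genes had negative differences in MPP (-1.08 to -0.22), and all 6 clamp and loader genes positive ones (0.04 to 0.80), though only Rrm2 and Rfc3 passed the test. The -1.08 was that of Tyms, whose HSC 3 value of 6.29 stood far above every other array. On the next brightest probe sets the direction turned for Rrm1 (7.07 in HSC, 7.64 in MPP), Tyms (3.44, 3.60) and Dut (5.22, 5.27). Rrm2 kept its direction. Among loader genes it turned for Rfc1 (8.62 in HSC, 8.30 in MPP) and held for Rfc2, Rfc3 and Rfc4. A missed threshold here does not show that levels were equal.

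Other genes of the pathway came from a list of 77, of which 75 were measured. Over all genes 37.8% were called between T cells and HSC (17.0% higher, 20.8% lower) and 28.9% between PreMegE cells and HSC (11.9% higher, 17.0% lower). In T cells 11 of 14 helicase and firing genes differed from HSC (2 higher, 9 lower), as did 10 of 14 polymerase and clamp genes (0 higher, 10 lower), 10 of 11 nucleotide genes (4 higher, 6 lower), 5 of 6 chromatin genes (1 higher, 4 lower) and 16 of 21 genes that control S phase entry (2 higher, 14 lower). All 9 measured mitosis and proliferation genes were lower, by -4.87 to -2.69. The 11 helicase and firing genes became 7 on the next brightest probe set, and the 5 chromatin genes became 3 on it or on the mean of all probe sets. In PreMegE cells 3 helicase and firing genes were called, all lower (21.4% of the 14, below the share of all genes), as were 7 polymerase and clamp genes (1 higher, 6 lower), 2 nucleotide genes (1 higher, 1 lower, 18.2% of the 11 and also below that share), 4 chromatin genes (1 higher, 3 lower) and 10 genes of S phase entry (3 higher, 7 lower). Of the 9 mitosis genes 7 were lower. The 3 helicase and firing genes became 5 without PreMegE 3, and the 2 nucleotide genes became 1 without HSC 2, PreMegE 2 or PreMegE 4 or without any 1 of the MPP arrays. Without HSC 2 and PreMegE 1 together the 7 polymerase and clamp genes became 4.

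The largest called PreMegE differences from HSC in each sublist were these. The firing factor Mtbp was -1.22 and no helicase and firing gene was higher. Chtf8, of an alternative clamp loader, was -1.44 and the topoisomerase Top1 0.58. Uhrf1, which recruits the maintenance DNA methyltransferase, was -1.35 and the histone chaperone Asf1a 1.29, with 0.07 (adjusted p = 0.877) on the next brightest Asf1a probe set, which averaged 3.30. Among nucleotide genes the salvage kinase Dck was -0.87, with -0.38 (adjusted p = 0.0601) on the mean of its probe sets, and Cmpk1 was 0.43, and the calls on Top1 and Cmpk1 were lost when any 1 of several arrays was left out, HSC 1 and HSC 2 among them. Among genes of S phase entry, the inhibitor Cdkn1c was -3.57, whereas the repressor E2f8 was 1.4 higher. E2f8 read 9.35, 9.17 and 9.57 in HSC, 8.42, 8.26 and 8.29 in MPP, 10.65, 10.76, 11.04 and 10.62 in PreMegE cells, and 5.56 and 4.23 in T cells, with no overlap between populations. Its next brightest probe set, at a mean of 2.91, gave 0.41 (adjusted p = 0.0791). The mitotic kinase Aurka was -2.33.

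The longer nucleotide list was mixed in T cells. Of its 11 measured genes, 6 were lower than in HSC and 4 were higher, and Cmpk1 was not called (0.07). Dctd, a deaminase on the route to thymidylate, was -3.21, the folate enzymes Shmt1 and Mthfd1 were -1.91 and -1.67, the thymidylate kinase Dtymk was -1.70, Dctpp1 was -1.53 and Dck was -0.89. The genes called higher were Samhd1, which breaks down deoxynucleotides, Rrm2b, a reductase subunit used outside S phase, and Tk2 and Dguok, the mitochondrial salvage kinases. These 10 genes are named because they were called, after their values were seen, so their directions are a description of the list.

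Samhd1 read 8.83, 8.84 and 8.87 in HSC, 8.96, 9.05 and 8.69 in MPP, 8.82, 8.51, 8.64 and 9.06 in PreMegE cells, and 11.2 and 11.70 in T cells. Rrm2b read 6.88, 6.80 and 6.94 in HSC against 8.28 and 8.34 in T cells. Tk2 read 5.57, 4.65 and 5.05 in HSC and 7.64 and 7.32 in T cells, and Dguok 7.18, 6.78 and 7.19 in HSC and 8.73 and 8.66 in T cells. T cell arrays of these genes were above every array of the other populations, with differences from HSC of 2.6 ± 0.20 for Samhd1, 1.44 ± 0.18 for Rrm2b, 2.39 ± 0.27 for Tk2 and 1.64 ± 0.19 for Dguok. The call on Rrm2b was lost on its next brightest probe set (1.09, adjusted p = 0.0668), which averaged 3.29.

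**Figure D5:**
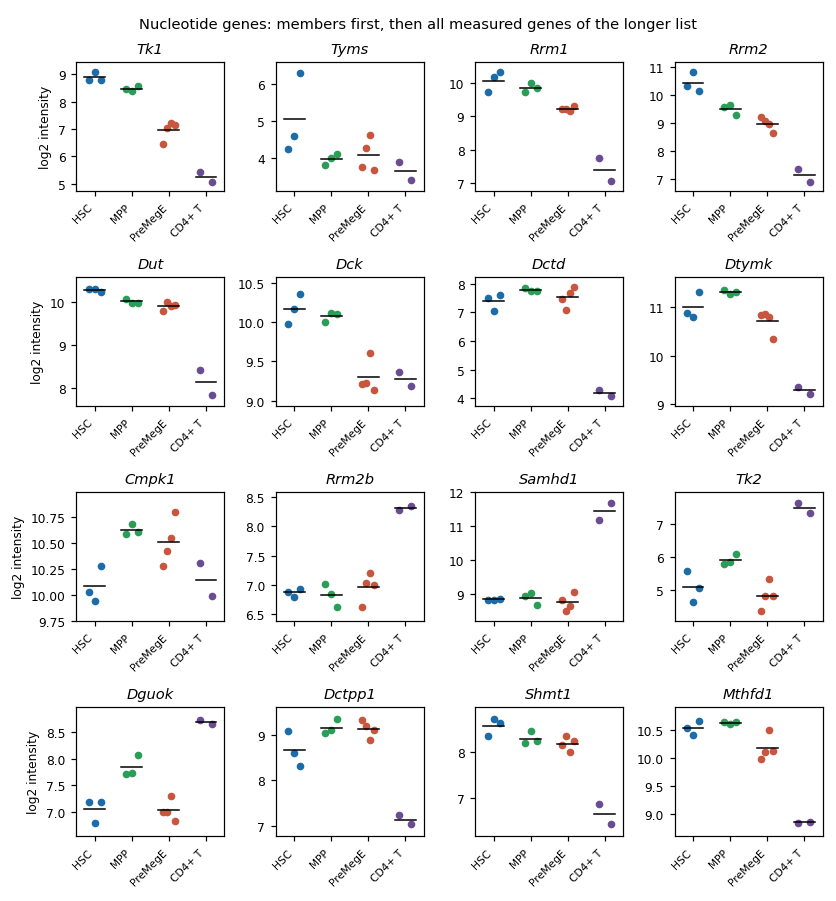
Log2 intensity on each array, by population, of the 5 nucleotide supply members (Tk1 to Dut) and then the 11 measured genes of the longer nucleotide list (Dck to Mthfd1); points are arrays, black bars are means and each panel has its own axis. Tk1, Rrm1, Rrm2, Dut, Dctd and Dtymk are among those lowest in T cells, and Rrm2b, Samhd1, Tk2 and Dguok are highest there.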

How the data were processed

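The authors deposited an intensity for each of 45101 probe sets on 12 Affymetrix arrays. RMA is named in the submitters' processing notes, and whether all arrays were normalised as one set is not given in the sources used here. The authors' values were linear, so log2 was taken here with no further normalisation or filter. The 64 control probe sets were left out. The platform annotation gave 34945 probe sets a single symbol, and 36 of the 47 measured members had more than 1 probe set. Probes of the 6 members read from an _x_at set may match other sequences.

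A single model with a mean per population was fitted with limma 3.58.1 in R 4.3.3 (lmFit and eBayes, two-sided, Benjamini-Hochberg over 18193 genes, files read with data.table, version 1.17.8) and was tested on simulated data. The number of arrays limits the precision, and all populations share one estimate of the spread. Members with all arrays printed were those called between MPP and HSC, the largest called difference per role for PreMegE minus HSC and T cells minus PreMegE, the 8 largest for T cells minus HSC without overlap, and those called against most of their role or in opposite directions. Others were added after their values were seen. Of other pathway genes, the largest called rise and fall per sublist in PreMegE minus HSC were named. Alternatives were other normalisations, filters, probe sets, variance models, a replicate block and leaving out arrays. Members and lists were chosen with earlier results of these data known. Promoter windows came from RefSeq (GRCm38.p6).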

Additional observations from a re-analysis of the deposited data

Results flagged for a closer look

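In PreMegE cells, the only population of 4 arrays and the one examined with Dixon's test, a single array stood apart from the others for 3 of the 47 genes, with a gap to its nearest neighbour, as a share of the range of the 4 arrays, above the critical value. Chance alone flags about 1 in 20 groups. Orc1 was 4.82 on PreMegE 1, with the nearest array at 5.45 (gap over range 0.905). Rfc2 was 9.2 on the same array against 9.42 (0.852). Lig1 was 9.0 on PreMegE 3 against 8.47 (0.947). PreMegE 1 is also the array with the most neutrophil transcript in its population and the highest actin 3′ to 5′ ratio, and their part in these values was not tested.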

How the results depend on the processing

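Between MPP and HSC the count of 3 called members was 5 after quantile normalisation, 5 after cyclic loess, 5 when only these 2 populations were fitted, 1 on the mean of all probe sets and 0 on the next brightest probe set (limma, with 13 members at an unadjusted p under 0.05 in the reported fit). The other 5 counts stayed within 1.5 times their value under every alternative. On the next brightest probe set the count for PreMegE minus HSC was 22, but only 17 of the 27 reported calls were kept. For PreMegE minus MPP the count was 29, with 23 of the 32 reported calls kept. Members with 1 probe set kept it there, so this alternative gives no second reading of them. Leaving out 1 array at a time gave 2 to 5 called members for MPP minus HSC, 25 to 31 for PreMegE minus HSC, 25 to 33 for PreMegE minus MPP, and 38 to 40, 36 to 40 and 35 to 36 for T cells minus HSC, MPP and PreMegE cells. Equal replicate numbers did not pair the arrays (correlations of -0.12 to 0.41 over 15 pairs), and with the replicate block the counts were 4, 27, 31, 40, 40 and 36 in the same order.

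Among results called in the reported fit or in the alternative, signs differed from the reported ones under 2 alternatives. Both were choices of probe set, and the cause was not tested. Sign changes where neither value was called are not listed below. Of the 36 members with a next brightest probe set, those of Dbf4 (mean level 2.57), Pola1 (2.88), Chaf1b (2.90) and Pole2 (2.97) lay below the lower quartile of all genes, as did that of Aurka (2.88), so their signs below carry no direction. With the next brightest probe set, PreMegE minus HSC gave -0.27 for Orc3, 0.13 for Mcm10, 0.08 for Cdc45, -0.64 for Pold1, -0.11 for Top1 and 0.15 for Aurka. PreMegE minus MPP gave -0.19 for Orc2, -0.58 for Mcm2, -0.49 for Mcm4, 0.29 for Cdc45, 0.10 for Dbf4, 0.09 for Pola1, 0.27 for Pola2, -0.84 for Pold1 and 0.06 for Chaf1b. T cells minus HSC gave -0.78 for Orc2, -0.69 for Orc3, 0.37 for Pole2, 0.07 for Chaf1b and 0.08 for Clspn. T cells minus MPP gave -0.73 for Orc3, 0.13 for Cdc45 and 0.14 for Chaf1b, and T cells minus PreMegE cells gave -0.42 for Orc3, 0.08 for Gins1, 1.01 for Rpa2, 0.10 for Rrm1 and 0.09 for Chaf1b. Some were called on that probe set itself (limma, adjusted p). In PreMegE cells these were Pold1 relative to HSC (0.0195) and MPP (0.00249), and Mcm2 (0.0298) and Mcm4 (0.0312) relative to MPP. In T cells they were Orc3 in all comparisons (0.00184 to 0.0468), Orc2 relative to HSC (0.00526) and Rpa2 relative to PreMegE cells (0.0177). Of these, Mcm2, Mcm4 and Orc2 were not called in the reported fit. With the mean of all probe sets, Pold1 was -0.04 in PreMegE minus HSC and Orc3 -0.16 in T cells minus MPP.

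Values near the bottom of the intensity range limit the folds of Cdc6, Tyms and Cdc45 in T cells, and of Tyms in MPP and PreMegE cells. By its description PreMegE 4 is replicate 3, and averaging it with PreMegE 3 left every count within 1.5 times.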
